A study of Tachycineta bicolor with 12 samples.

Results

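The circadian clock genes of the tree swallow (Tachycineta bicolor) were taken as the protein-coding segments whose deposited protein name contains that of a period or cryptochrome protein, CLOCK (circadian locomoter output cycles kaput), NPAS2, a nuclear translocator-like protein, BHLHE40 or BHLHE41, TIMELESS or its partner, a casein kinase I isoform, thyrotroph embryonic factor (TEF) or NFIL3. This rule used names only and no measured value. It found 24 of the 14908 segments, which carry 21 protein names, since NPAS2, TEF and a casein kinase I whose paralog the name does not give have more than 1 segment. RNA came from brain, ovary, spleen, liver, pectoral muscle and trunk blood of 2 wild adult females, the first taken while establishing a territory and the second while incubating, and was pooled in equal molar amounts for each tissue. Each pool was sequenced as 1 MiSeq and 1 NextSeq library, so the 12 libraries hold 1 pool per tissue and no biological replicate. Differences between tissues were therefore not tested, and no p is given. Both females were taken in the morning, so each level is that of a single time of day. A difference in mean level between tissues and a difference in the timing of a daily rhythm cannot be told apart in these pools, and neither can more cells of a type and more RNA per cell.

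The vertebrate clock is a transcriptional loop that runs in most cells. The activators CLOCK or NPAS2 pair with ARNTL (also called BMAL1) or ARNTL2 and switch on the period and cryptochrome genes, whose proteins return to the nucleus and block the activators. Some casein kinases I, such as CSNK1E, phosphorylate the period proteins and set their stability. BHLHE40 and BHLHE41 compete for the same DNA element, and a further loop of REV-ERB and ROR nuclear receptors controls ARNTL. TEF activates and NFIL3 represses genes through a shared DNA element, the D-box, and carry the rhythm to output genes. Birds hold clocks in the pineal gland, the retina and the hypothalamus, and the same genes are also transcribed in peripheral organs.

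Levels are given as CPM, the counts of both libraries of a tissue divided by their summed total and multiplied by 1000000. The summed totals ranged from 16496224.5 counts in spleen to 42803055.5 in muscle. A single count equalled 0.499 to 0.989 CPM in a MiSeq library and 0.0245 to 0.0646 CPM in a NextSeq library. The rank correlation of the MiSeq and NextSeq libraries of a tissue, across segments, was between 0.962 and 0.984. Of 26 matched marker genes of the 6 tissues, 25 were highest in their own tissue in CPM. Transthyretin, the exception, was higher in brain than in liver and turned to liver with TMM factors, described next. With the same factors the spleen marker CD79B, at 28.9 CPM in spleen, turned away from its own tissue to blood. A few genes took much of some libraries: HBB, the beta chain of hemoglobin, held 273157 CPM in blood and albumin 75986 CPM in liver, which leaves less of the total for all other genes. The TMM factors, which set the tissues level on the bulk of genes, were largest in ovary (2.23), spleen (2.05) and brain (1.88) and smallest in muscle (0.364), blood (0.565) and liver (0.567). Dividing CPM by them moves every gene of liver, muscle and blood up and every gene of brain, ovary and spleen down. The shift is the same for every gene of a tissue. On the log2 scale it is 1.46 in muscle, 0.82 in liver, 0.82 in blood, -1.16 in ovary, -1.04 in spleen and -0.91 in brain. Where this changed the tissue with the highest level of a clock gene or of a gene named around the loop it is said beside that gene. Segment lengths were not used here, so levels are compared between tissues for 1 gene or as a ratio of the same genes. The rank of a gene among all segments of a tissue is compared only between tissues. Length moves that rank, and so does the number of segments that a tissue expresses.

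Clock genes were broadly expressed. All 24 members reached 1 CPM in brain, where 87.7% of all 14908 segments did, and in spleen, where 83.4% did. In ovary it was 23 members, against 88.3% of all segments. Fewer members reached that level in liver (20, all segments 66.7%), blood (19, all segments 57.7%) and muscle (17, all segments 61.2%). In all 6 tissues together 16 of the 24 (66.7%) reached 1 CPM, against 46.5% of all segments. The 8 that did not were both NPAS2 segments, the cryptochrome-1-like and cryptochrome DASH-like segments, BHLHE41, the second TEF segment, CSNK1G1 and TIMELESS. The index of tissue specificity τ, which is 0 for a gene at 1 level in every tissue and near 1 for a gene of a single tissue, had a median of 0.375 over the members and 0.461 over the 14561 segments that reached 1 CPM somewhere. It was lowest for CSNK1A1 (0.114), PER3 (0.141), casein kinase I isoform X1 (0.153) and CRY1 (0.153), and highest for the cryptochrome DASH-like segment (0.771), NPAS2 (0.719) and BHLHE40 (0.712). No member exceeded 0.8, as 5.40% of all segments did, and 10 members (41.7%) were below 0.3, against 23.7% of all segments. Members and all segments overlapped over the whole range of the members. The members were also the more abundant, with a median CPM summed over tissues of 181.2, against 122.8 over the 14561 segments. Neither the counts at 1 CPM nor τ were adjusted for level.

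The highest level of a member was in spleen for 8, in brain for 6, in ovary for 6 and in blood for 4, and in neither liver nor muscle. Those of blood include both TEF segments, and those of brain both NPAS2 segments. Of all 14561 expressed segments, 23.7% had theirs in spleen, 24.9% in brain, 32.1% in ovary, 8.89% in blood, 6.23% in liver and 4.11% in muscle. A lead of at least 2-fold over every other tissue, with 1 CPM added to both levels, was held by 3 members in brain (all segments 13.2%), 3 in ovary (13.6%) and 0 in spleen (8.21%), liver (3.85%), muscle (2.18%) and blood (3.91%). That makes 6 of 24 members (25%), whereas 45% of all expressed segments had such a lead in some tissue. The 3 leads in brain include both NPAS2 segments. Just inside the limit was TIPIN in ovary at 2.04-fold, and just outside it CLOCK in blood at 1.999-fold. Over the 4 other scalings that were tried, 13 of the 24 members had the same highest tissue as in CPM, and in the MiSeq and NextSeq libraries apart 22 had. Levels in neighbouring tissues were called separated where neither their counting intervals nor their library values overlapped. By that rule the highest tissue stood apart from the next for 15 members and did not for 9.

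**Figure D1:**
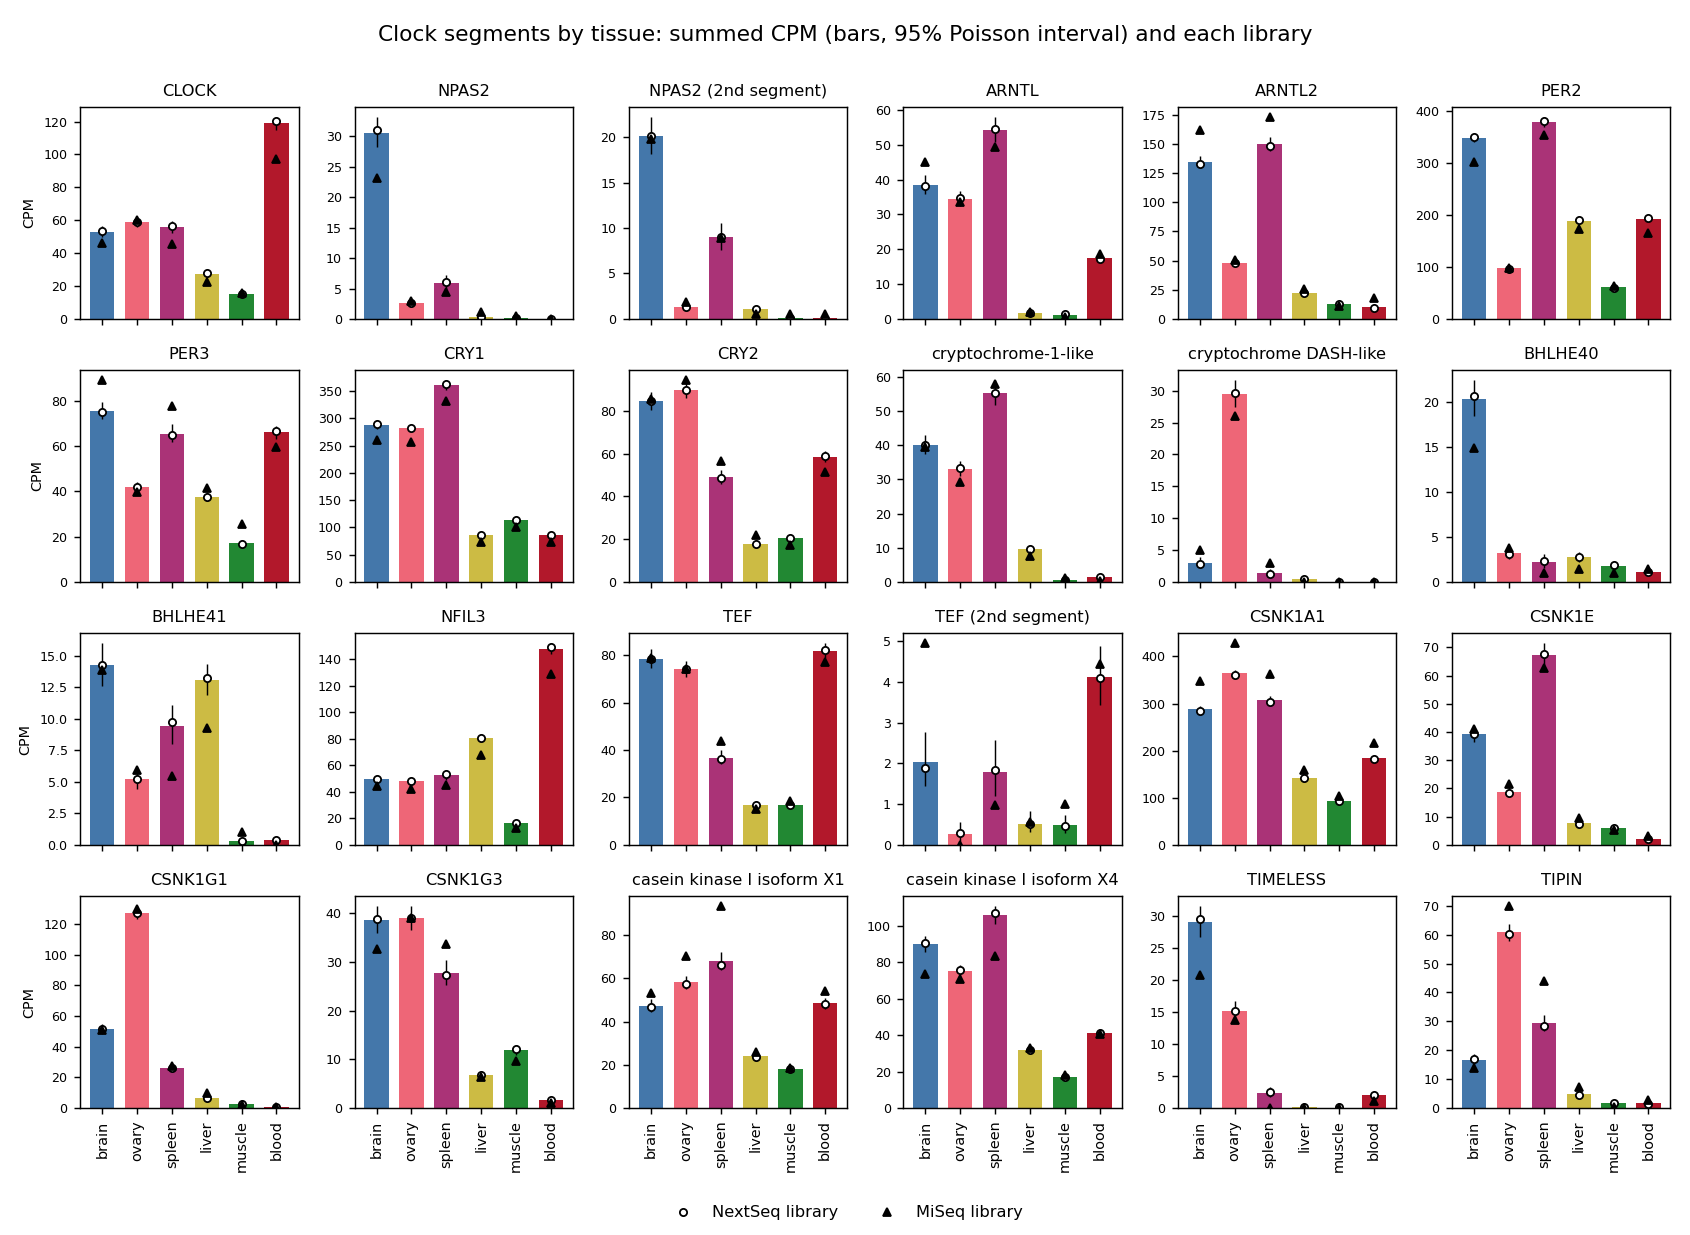
Level in CPM of the 24 clock segments (1 panel each, linear axis from 0) in 6 tissues, as bars for both libraries of a tissue with the exact 95% Poisson interval, triangles for the MiSeq library and circles for the NextSeq library. CLOCK and NFIL3 are highest in blood, NPAS2, BHLHE40 and TIMELESS in brain, and the cryptochrome DASH-like segment, CSNK1G1 and TIPIN in ovary, whereas ARNTL is near the axis in liver (1.75 CPM) and muscle (1.26 CPM).

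The activators differed from each other in where they were expressed. CLOCK, a partner in the activator pair, was present in every tissue and most abundant in blood. It had 119 CPM in blood, with ovary at 58.9, spleen at 55.6, brain at 53.0, liver at 27.4 and muscle at 15.0. The MiSeq and NextSeq libraries apart gave 97.4 and 120.1 CPM in blood, 59.8 and 58.9 in ovary, 45.5 and 56.3 in spleen, 46.0 and 53.4 in brain, 22.7 and 27.6 in liver and 15.5 and 15.0 in muscle. With 1 CPM added to both levels blood exceeded ovary 1.999-fold, and with TMM factors it exceeded liver, then the next tissue, 4.29-fold. Blood stayed the highest tissue under every scaling tried. Ovary, spleen and brain were not separated.

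NPAS2, the paralog of CLOCK that is known in mammals as the activator of the forebrain, was mostly a brain transcript. Its main segment had 30.6 CPM in brain, with spleen at 5.91, ovary at 2.58, liver at 0.353, muscle at 0.128 and blood at 0.0470. In the MiSeq and NextSeq libraries these were 23.2 and 31.0 CPM in brain, 4.45 and 6.01 in spleen, 2.97 and 2.56 in ovary, 1.12 and 0.313 in liver, 0.499 and 0.110 in muscle and 0 and 0.0499 in blood. Brain led spleen 4.58-fold with 1 CPM added, and the level in blood rested on 1.5 counts, with an interval of 0.00338 to 0.201 CPM. The second NPAS2 segment ranged from 0.0627 CPM in blood to 20.1 CPM in brain, again with spleen next (8.97 CPM). Brain was the highest tissue of both segments under every scaling and in either library. Liver, muscle and blood were all at or below 1.103 CPM for the 2 segments.

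ARNTL, the partner without which the mammalian loop stops, was by far lowest in liver and muscle. It had 54.3 CPM in spleen, with brain at 38.4, ovary at 34.5, blood at 17.4, liver at 1.75 and muscle at 1.26. Its 2 libraries gave, MiSeq before NextSeq, 49.4 and 54.6 CPM in spleen, 45.0 and 38.1 in brain, 33.4 and 34.6 in ovary, 18.6 and 17.3 in blood, 1.97 and 1.74 in liver and 0.499 and 1.30 in muscle. The liver value came from 62 counts (interval 1.34 to 2.25 CPM) and the muscle value from 54 counts (0.948 to 1.65 CPM), both far below the other tissues and not separated from each other. Spleen was highest in CPM, and blood with TMM and DESeq2 size factors. Liver and muscle were the lowest tissues with TMM factors as well, at 3.09 and 3.47 CPM, next to 30.7 in blood and 15.5 in ovary.

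ARNTL2, its paralog, followed another order. It had 149.6 CPM in spleen, with brain at 134, ovary at 48.3, liver at 22.0, muscle at 12.6 and blood at 10.2. By library, MiSeq first, these were 173 and 148 CPM in spleen, 162 and 133 in brain, 50.9 and 48.2 in ovary, 25.8 and 21.8 in liver, 11.2 and 12.7 in muscle and 18.0 and 9.72 in blood. Spleen and brain were not separated, and both stood above every other tissue in CPM and with TMM factors. Blood, where ARNTL was well above liver and muscle, was the lowest tissue for ARNTL2 (9.11 to 11.4 CPM), although its MiSeq and NextSeq libraries differed by 0.89 on the log2 scale and the MiSeq value lay above both muscle libraries.

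Among the repressors, PER2 was led by spleen and brain in CPM and held its lowest rank within a tissue in ovary. Period proteins are the partners of the cryptochromes in the repressing complex. PER2 had 379.5 CPM in spleen, with brain at 349, blood at 193, liver at 189, ovary at 97.3 and muscle at 60.6. Separate libraries, MiSeq and then NextSeq, had 354 and 381 CPM in spleen, 303 and 351 in brain, 166 and 194 in blood, 174 and 189.8 in liver, 98.9 and 97.2 in ovary and 62.6 and 60.5 in muscle. Spleen and brain led in CPM, while blood and liver did with TMM factors (341 and 333 CPM) and with DESeq2 size factors. Ovary was the lowest tissue with TMM factors (43.7 CPM) and muscle the lowest in CPM. Ranked within its own tissue, which no scaling can change, PER2 stood at percentile 97.9 in spleen, with brain at 97.6, liver at 96.4, blood at 96.2, muscle at 93.7 and ovary at 81.5 of the 14908 segments. Ovary was thus the tissue where PER2 held its lowest rank, and muscle came next. This was not particular to PER2. CLOCK, both NPAS2 segments, ARNTL2, PER3, BHLHE40, BHLHE41 and NFIL3 also ranked lowest in ovary. So did the second TEF segment, CSNK1E and casein kinase I isoform X4.

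PER3 was the more even of the period genes by τ in CPM (0.141, PER2 0.157), but not by rank. Its levels were 75.6 CPM in brain, with blood at 66.0, spleen at 65.4, ovary at 41.7, liver at 37.5 and muscle at 17.3. For MiSeq and NextSeq they were 89.0 and 74.8 CPM in brain, 59.7 and 66.4 in blood, 77.6 and 64.6 in spleen, 39.8 and 41.8 in ovary, 41.6 and 37.3 in liver and 25.7 and 16.9 in muscle. Brain was highest in CPM and blood with TMM, DESeq2 and both of the other rescalings. Its percentile within the tissue was lowest in ovary too (62.7) and highest in blood (89.5), a spread of 26.8 against 16.4 for PER2.

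CRY1, the main repressing cryptochrome of the mammalian loop, varied little in rank between the tissues. Its levels were 361 CPM in spleen, with brain at 288, ovary at 282, muscle at 113, blood at 85.7 and liver at 85.6. The 2 libraries gave, MiSeq before NextSeq, 331 and 363 CPM in spleen, 261 and 289 in brain, 256 and 283 in ovary, 100.03 and 113 in muscle, 73.8 and 86.4 in blood and 73.6 and 86.2 in liver. Spleen was highest in CPM, but muscle with TMM and DESeq2 size factors, where the TMM value was 309.8 CPM in muscle and 176 CPM in spleen. Within each tissue it ranked between percentile 91.3 in blood and 97.6 in spleen.

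CRY2 was lowest in liver and muscle in CPM, an order that did not hold with TMM factors. It had 89.9 CPM in ovary, with brain at 84.6, blood at 58.6, spleen at 49.0, muscle at 20.5 and liver at 17.8. In the MiSeq and NextSeq libraries it had 94.4 and 89.6 CPM in ovary, 85.5 and 84.6 in brain, 51.3 and 59.1 in blood, 56.3 and 48.5 in spleen, 17.2 and 20.6 in muscle and 21.9 and 17.5 in liver. Ovary and brain were not separated, and blood became the highest tissue under each of the 4 other scalings. With TMM factors muscle came next, at 56.3 CPM, and spleen was lowest, at 23.9 CPM. Its percentile within the tissue was lowest in spleen (70.1), where that of CRY1 was highest.

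Other members of the cryptochrome and photolyase family were more restricted. The cryptochrome-1-like segment, whose name does not give its place in the family, had 55.4 CPM in spleen, with brain at 40.1, ovary at 33.1, liver at 9.53, blood at 1.41 and muscle at 0.607. Its libraries had, MiSeq before NextSeq, 57.8 and 55.2 CPM in spleen, 39.6 and 40.2 in brain, 29.4 and 33.3 in ovary, 7.58 and 9.63 in liver, 0.278 and 1.48 in blood and 1.25 and 0.576 in muscle. It was highest in spleen under every scaling, and lowest in muscle and blood, which were not separated. The cryptochrome DASH-like segment belongs to a branch that is close to the DNA-repairing photolyases. It had 29.5 CPM in ovary, with brain at 2.998, spleen at 1.33, liver at 0.467, muscle at 0.0584 and blood at 0, and 26.0 and 29.7 CPM in ovary, 4.95 and 2.89 in brain, 2.97 and 1.23 in spleen, 0 and 0.491 in liver, 0 and 0.0613 in muscle and 0 and 0 in blood in the MiSeq and NextSeq libraries. Ovary led brain 7.63-fold with 1 CPM added, the largest lead of the 24 members, and stayed highest under every scaling. No count was found in blood, where 3 counts equal 0.0941 CPM and the exact interval reaches up to 0.116 CPM.

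BHLHE40 and BHLHE41, also known as DEC1 and DEC2, were both highest in brain in CPM and differed in the order of the other tissues. BHLHE40 had 20.3 CPM in brain, with ovary at 3.17, liver at 2.71, spleen at 2.21, muscle at 1.80 and blood at 1.07. By library the values were 14.8 and 20.6 CPM in brain, 3.72 and 3.14 in ovary, 1.40 and 2.78 in liver, 0.988 and 2.29 in spleen, 0.998 and 1.84 in muscle and 1.39 and 1.05 in blood, again MiSeq first. Brain led ovary 5.11-fold with 1 CPM added and was highest under every scaling, but with TMM factors muscle came next and the lead was 1.99-fold, just under the 2-fold limit. In CPM none of the 5 other tissues was separated from its neighbour in the order. BHLHE41 had 14.2 CPM in brain, with liver at 13.1, spleen at 9.46, ovary at 5.25, blood at 0.376 and muscle at 0.315, and the libraries gave 13.8 and 14.2 CPM in brain, 9.27 and 13.3 in liver, 5.44 and 9.72 in spleen, 5.95 and 5.21 in ovary, 0 and 0.399 in blood and 0.998 and 0.282 in muscle. Brain and liver were not separated in CPM, and with TMM factors liver led (23.0 CPM) over brain (7.57 CPM). Muscle and blood were the lowest in either scaling, with intervals of 0.170 to 0.534 and 0.194 to 0.657 CPM.

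Of the D-box factors, the repressor NFIL3 (also E4BP4) was highest in blood and then in liver. It had 148 CPM in blood, with liver at 80.3, spleen at 52.6, brain at 49.4, ovary at 47.9 and muscle at 16.6. By library it had 129 and 149 CPM in blood, 68.0 and 81.0 in liver, 45.0 and 53.1 in spleen, 44.5 and 49.7 in brain, 42.4 and 48.2 in ovary and 12.97 and 16.8 in muscle, MiSeq first. Blood exceeded liver 1.83-fold in CPM and 1.84-fold with TMM factors, 1 CPM added to both levels, and kept first place under every scaling. Liver held second place in CPM and with TMM factors. TEF, the activator, had 81.8 CPM in blood, with brain at 78.4, ovary at 74.0, spleen at 36.8, liver at 16.9 and muscle at 16.7, with 76.9 and 82.1 CPM in blood, 78.6 and 78.4 in brain, 74.0 and 74.0 in ovary, 44.0 and 36.3 in spleen, 15.2 and 16.9 in liver and 18.5 and 16.6 in muscle in the MiSeq and NextSeq libraries. Blood and brain were not separated in CPM, brain being the higher in the MiSeq library, and blood led muscle 3.11-fold with TMM factors and 1 CPM added. The second TEF segment, whose identifier carries another suffix than the rest, ranged from 0.267 CPM in ovary to 4.11 CPM in blood.

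The casein kinases I ranged from even to strongly graded. CSNK1A1, a kinase with many targets beyond the clock, had the lowest τ of all members, although the span between the highest and lowest tissue was narrower for casein kinase I isoform X1 (3.60-fold with 1 CPM added) than for CSNK1A1 (3.88-fold). It had 364 CPM in ovary, with spleen at 308, brain at 288, blood at 185, liver at 143 and muscle at 93.0. By library, MiSeq first, it had 428 and 361 CPM in ovary, 362 and 304 in spleen, 348 and 285 in brain, 216 and 183 in blood, 158 and 142 in liver and 105 and 92.4 in muscle. Spleen was separated from neither ovary nor brain, while ovary was separated from brain, and with TMM factors blood led at 328 CPM. Within each tissue it ranked between percentile 95.3 and 97.6. CSNK1E, whose product binds and phosphorylates the period proteins, had 67.4 CPM in spleen, with brain at 39.3, ovary at 18.7, liver at 7.62, muscle at 6.12 and blood at 2.12. Its libraries gave 62.8 and 67.7 CPM in spleen, 41.0 and 39.2 in brain, 21.6 and 18.6 in ovary, 9.55 and 7.52 in liver, 5.24 and 6.16 in muscle and 3.05 and 2.06 in blood. It was highest in spleen under every scaling and lowest in blood, 21.9-fold below spleen with 1 CPM added.

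The gamma kinases, which are bound to membranes, had no such spleen maximum. CSNK1G1 had 127 CPM in ovary, with brain at 51.2, spleen at 26.3, liver at 6.80, muscle at 2.57 and blood at 0.753. MiSeq and NextSeq gave 129.7 and 127 CPM in ovary, 50.9 and 51.2 in brain, 27.2 and 26.3 in spleen, 9.55 and 6.65 in liver, 2.00 and 2.60 in muscle and 0.555 and 0.765 in blood. Ovary led brain 2.46-fold with 1 CPM added and stayed highest under every scaling, by 1.85-fold with DESeq2 size factors, and blood was lowest at an interval of 0.482 to 1.12 CPM. CSNK1G3 had 39.0 CPM in ovary, with brain at 38.5, spleen at 27.8, muscle at 11.9, liver at 6.67 and blood at 1.63, and its libraries 39.0 and 39.0 CPM in ovary, 32.6 and 38.9 in brain, 33.6 and 27.4 in spleen, 9.73 and 12.03 in muscle, 6.46 and 6.68 in liver and 1.11 and 1.66 in blood. Its ovary and brain levels were not separated, and muscle was highest with TMM factors (32.8 CPM). Blood was the lowest tissue for CSNK1G1, CSNK1G3 and CSNK1E alike, in CPM and with TMM factors. The 2 segments named only casein kinase I did not share that low level. The first (isoform X1) had 67.9 CPM in spleen, with ovary at 58.1, blood at 48.4, brain at 47.3, liver at 23.9 and muscle at 18.1, and the second (isoform X4) 106 CPM in spleen, with brain at 89.98, ovary at 75.3, blood at 41.3, liver at 32.1 and muscle at 17.2. With TMM factors blood was the highest tissue of both, at 85.6 and 73.1 CPM. Their MiSeq and NextSeq values ran from 18.5 and 18.1 CPM in muscle to 93.4 and 66.3 CPM in spleen for the first, and from 18.0 and 17.2 CPM in muscle to 83.5 and 107 CPM in spleen for the second.

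TIMELESS is named for a clock gene of flies, while in vertebrates it is known to travel with the replication fork together with its partner TIPIN. The pair did not share a tissue. TIMELESS had 29.0 CPM in brain, with ovary at 15.1, spleen at 2.33, blood at 2.01, liver at 0.127 and muscle at 0.0701. By library, MiSeq before NextSeq, it had 20.8 and 29.4 CPM in brain, 13.8 and 15.2 in ovary, 0 and 2.49 in spleen, 1.11 and 2.06 in blood, 0 and 0.134 in liver and 0 and 0.0735 in muscle. With 1 CPM added to both levels brain exceeded ovary 1.86-fold in CPM. It led under every scaling, by 2.03-fold to 2.32-fold in the 4 others on the same measure. TIPIN had 60.8 CPM in ovary, with spleen at 29.3, brain at 16.7, liver at 4.74, muscle at 1.64 and blood at 1.58, with 69.9 and 60.3 CPM in ovary, 44.0 and 28.4 in spleen, 13.8 and 16.9 in brain, 7.30 and 4.60 in liver, 0.499 and 1.69 in muscle and 2.78 and 1.51 in blood in the MiSeq and NextSeq libraries. Ovary led spleen 2.04-fold with 1 CPM added and was highest under every scaling, but the lead was under 2-fold in all 4 other scalings (1.85 to 1.95). The 10 marker genes of dividing cells, which include the MCM helicases, summed to 1745 CPM in ovary, with spleen at 931, brain at 143.8, blood at 97.3, liver at 28.8 and muscle at 15.9, and 8 of them were highest in ovary and 2 in spleen in CPM. TIPIN followed their first places, ovary and then spleen, and TIMELESS did not, and whether dividing cells set either level was not tested.

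**Figure D2:**
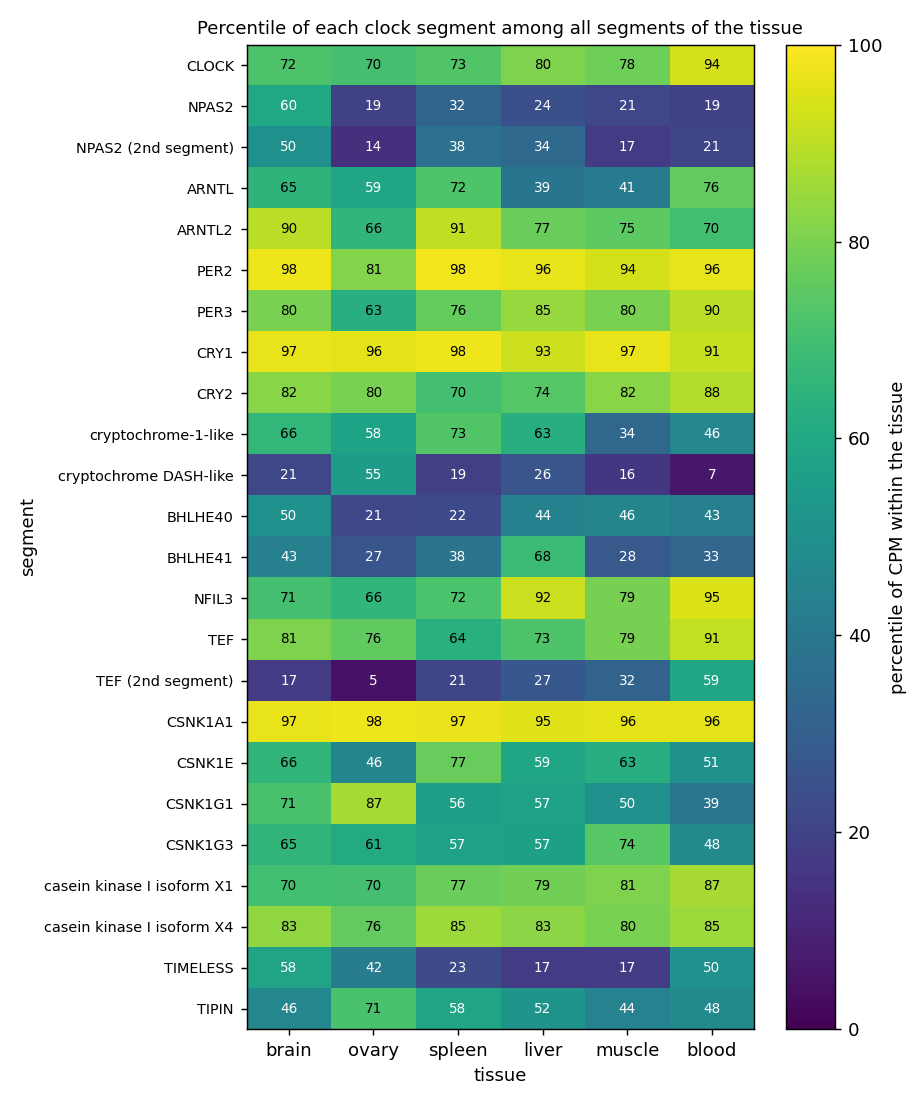
Percentile of each clock segment among the 14908 segments of the same tissue, ranked by CPM (0 to 100, colour and number), for 24 segments (rows) and 6 tissues (columns). CSNK1A1 and CRY1 keep nearly the same rank in every tissue, and PER2, like several other members, is lowest in ovary (81.5). ARNTL drops in liver (39.0) and muscle (41.3), and NPAS2 has its one high rank in brain (59.8).

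Ranks within a tissue do not depend on how tissues are scaled, although a longer transcript ranks higher in all of them alike. They do depend on how many segments a tissue expresses, 88.3% at 1 CPM or more in ovary and 57.7% in blood. NPAS2 had nearly the same percentile at 2.58 CPM in ovary (19.25) and at 0.0470 CPM in blood (19.31). A difference in rank between tissues is thus not by itself a difference in level. Over the 24 members the median percentile was 70.9 in spleen, 68.6 in muscle, 67.9 in brain, 65.6 in liver, 64.4 in blood and 64.2 in ovary. By rank the tissue of the highest value was the same as by CPM for 18 of the 24. The 6 that changed were ARNTL, PER3, CRY2 and casein kinase I isoform X1, which ranked highest in blood, BHLHE41, which did in liver, and CSNK1G3, which did in muscle. Among the main segments of the activators and of PER2, PER3, CRY1 and CRY2, NPAS2 had the widest spread of ranks, between 19.3 in ovary and 59.8 in brain. CRY1 had the narrowest of them.

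The balance of the loop was then followed as ratios of counts of the same 2 genes within a tissue, which no scaling changes. The pairs were chosen after the levels had been seen. The partners of the activator, CLOCK and ARNTL, were at similar ratios in brain, ovary and spleen and far apart in the other tissues. The ratio of CLOCK to ARNTL was 15.6 in liver, with muscle at 11.9, blood at 6.85, ovary at 1.71, brain at 1.38 and spleen at 1.02. The MiSeq and NextSeq libraries gave 11.6 and 15.9 in liver, 31.0 and 11.5 in muscle, 5.24 and 6.95 in blood, 1.79 and 1.70 in ovary, 1.02 and 1.40 in brain and 0.920 and 1.03 in spleen. Liver and muscle had overlapping intervals (12.1 to 20.5 and 8.99 to 16.0), and both lay above blood (6.26 to 7.498). The lowest library of these 3 tissues, 5.24 in blood, was above the highest of the first 3, 1.79 in ovary.

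ARNTL to PER2, an activator set against its target and repressor, spanned a wide range. The ratio was 0.355 in ovary, with spleen at 0.143, brain at 0.110, blood at 0.0900, muscle at 0.0208 and liver at 0.00927. Its MiSeq and NextSeq values were 0.338 and 0.356 in ovary, 0.140 and 0.143 in spleen, 0.148 and 0.108 in brain, 0.112 and 0.0889 in blood, 0.00797 and 0.0215 in muscle and 0.0113 and 0.00918 in liver. Ovary stood 38.3-fold above liver, and neither platform placed another tissue above ovary. Liver was lowest in the summed and NextSeq counts and muscle in the MiSeq library, where ARNTL had 1 count. REV-ERB beta (NR1D2) is the nuclear receptor that represses ARNTL. The ratio of NR1D2 to ARNTL was 23.5 in muscle, with liver at 18.4, brain at 5.24, blood at 3.64, ovary at 2.71 and spleen at 0.818. Muscle and liver were the highest in both libraries and spleen the lowest, but ARNTL is the denominator. In CPM the level of NR1D2 itself was lowest in muscle (29.6 CPM) and liver (32.3 CPM). By percentile within the tissue NR1D2 was instead lowest in spleen (67.8), with ovary at 80.8, liver at 82.8 and muscle at 87.2. Since ARNTL stands in all 3 of these ratios, they are not separate lines of evidence.

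The balance of paralogs differed between tissues. The ratio of CLOCK to NPAS2 was 2526 in blood, with muscle at 117, liver at 77.5, ovary at 22.9, spleen at 9.41 and brain at 1.73. Brain was the tissue with the most NPAS2 beside CLOCK in both libraries, and the blood value rests on 1.5 counts of NPAS2 (interval 590 to 35130). The ratio of ARNTL to ARNTL2 was 1.70 in blood, with ovary at 0.715, spleen at 0.363, brain at 0.286, muscle at 0.0999 and liver at 0.0796, with 1.03 and 1.78 in blood, 0.657 and 0.718 in ovary, 0.286 and 0.368 in spleen, 0.278 and 0.287 in brain, 0.0444 and 0.102 in muscle and 0.0761 and 0.0799 in liver in the MiSeq and NextSeq libraries. Blood had the highest ratio on both platforms. Ovary came next, and liver and muscle were lowest with overlapping intervals.

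Among the repressors, the ratio of CRY1 to CRY2 was 7.36 in spleen, with muscle at 5.50, liver at 4.82, brain at 3.40, ovary at 3.13 and blood at 1.46, with 5.88 and 7.47 in spleen, 5.81 and 5.49 in muscle, 3.36 and 4.92 in liver, 3.05 and 3.42 in brain, 2.72 and 3.16 in ovary and 1.44 and 1.46 in blood in the MiSeq and NextSeq libraries. Spleen was highest and blood lowest in either library. PER2 to PER3 gave 5.80 in spleen, with liver at 5.03, brain at 4.61, muscle at 3.51, blood at 2.92 and ovary at 2.33. Its MiSeq values ran from 2.44 in muscle to 4.56 in spleen, so that spleen was the highest tissue on both platforms and the lowest was muscle on the first and ovary on the second. The 2 repressing families were set against each other by CRY1 to PER2, which was 2.90 in ovary, with muscle at 1.86, spleen at 0.950, brain at 0.825, liver at 0.453 and blood at 0.444. The libraries gave 2.59 and 2.91 in ovary, 1.60 and 1.87 in muscle, 0.936 and 0.951 in spleen, 0.860 and 0.823 in brain, 0.423 and 0.454 in liver and 0.444 and 0.444 in blood, MiSeq first. Ovary was highest and muscle next on both platforms, and liver and blood had overlapping intervals.

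Output factors and second repressors were graded by tissue as well. NFIL3 to TEF sets a D-box repressor over a D-box activator, and leaves out HLF, another activator that is named below. The ratio was 4.76 in liver, with blood at 1.81, spleen at 1.43, muscle at 0.994, ovary at 0.647 and brain at 0.630. The MiSeq and NextSeq libraries gave 4.48 and 4.78 in liver, 1.68 and 1.81 in blood, 1.02 and 1.46 in spleen, 0.703 and 1.01 in muscle, 0.573 and 0.651 in ovary and 0.566 and 0.633 in brain. Liver was highest, 7.56-fold above brain, and brain and ovary were lowest with overlapping intervals. BHLHE41 to BHLHE40 was 4.81 in liver, with spleen at 4.27, ovary at 1.66, brain at 0.701, blood at 0.353 and muscle at 0.175, where muscle had 13.5 counts of BHLHE41 and blood 12. Spleen and liver were highest in both libraries. TIPIN to TIMELESS was 37.2 in liver, with muscle at 23.3, spleen at 12.6, ovary at 4.03, blood at 0.789 and brain at 0.577, with 4.5 counts of TIMELESS in liver and 3 in muscle. Their intervals (15.0 to 126 and 7.66 to 116) overlapped that of spleen (9.05 to 17.9), and those of brain and blood, the lowest tissues, overlapped too.

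**Figure D3:**
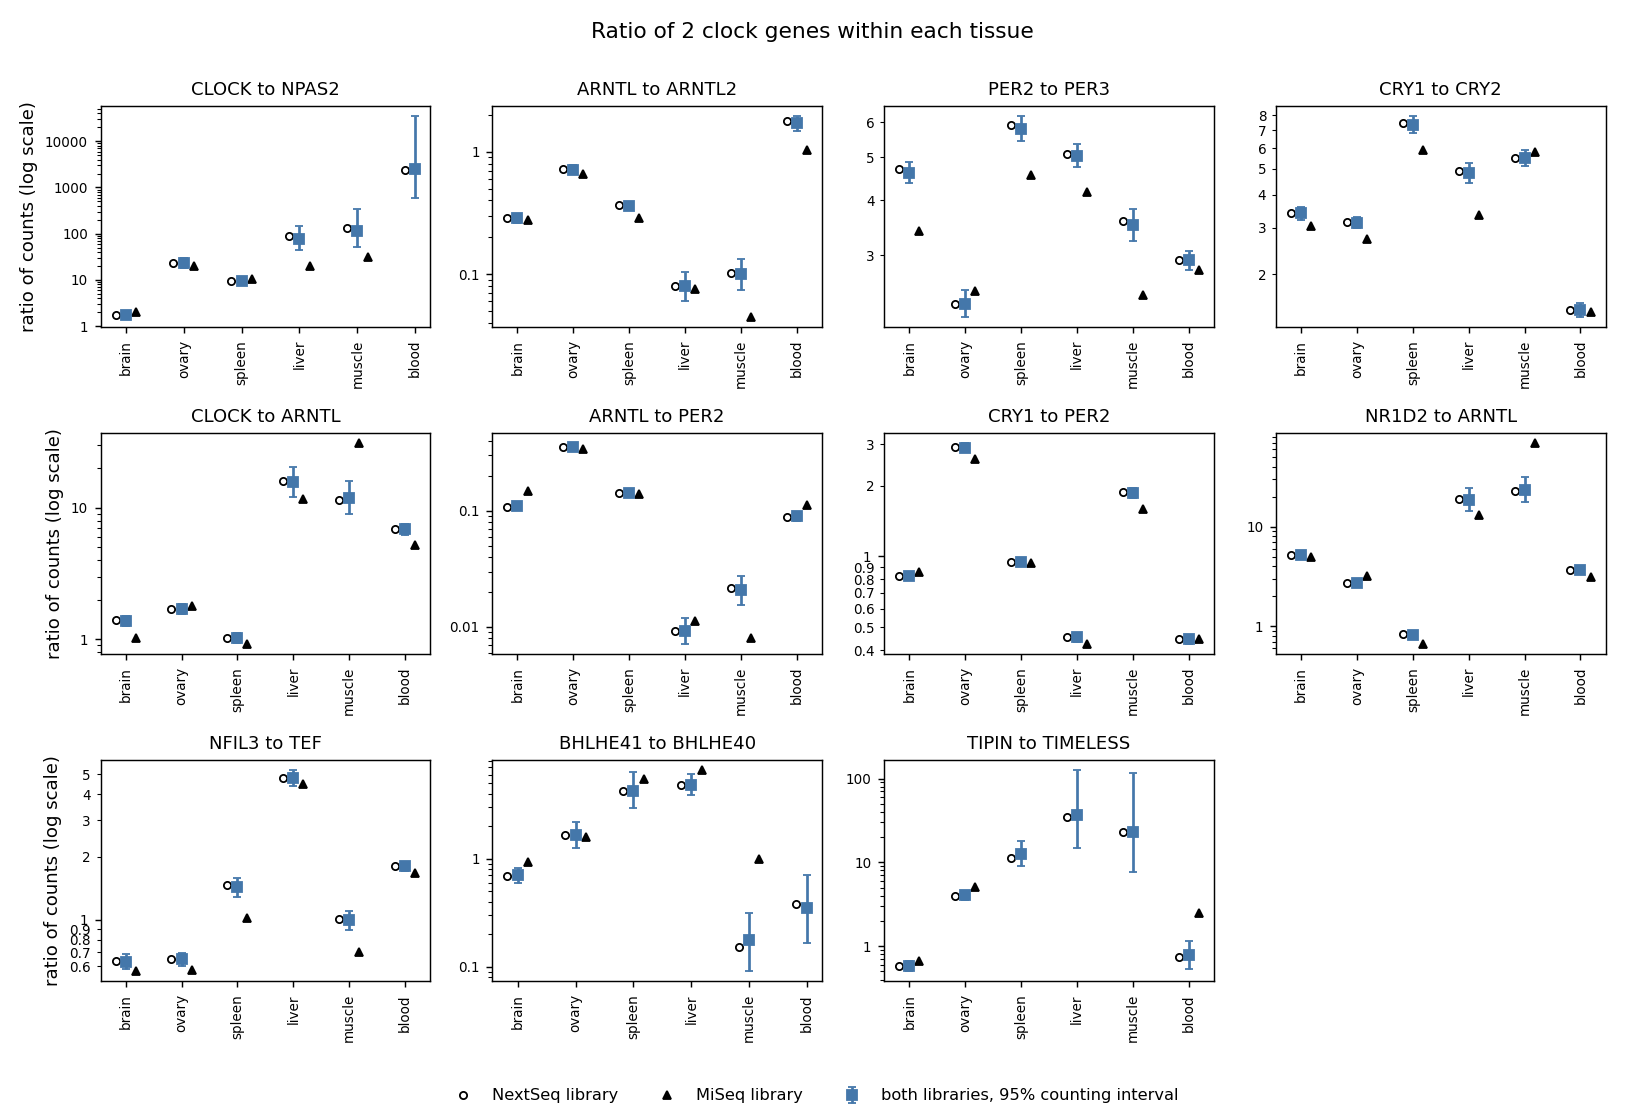
Ratio of the counts of 2 genes within each of 6 tissues for 11 pairs (1 panel each, log axis), as squares for both libraries with the 95% counting interval, triangles for the MiSeq and circles for the NextSeq library. MiSeq ratios with a count of 0 are not drawn. CLOCK to ARNTL is above 5 in liver, muscle and blood and below 2 in brain, ovary and spleen in every library, and NFIL3 to TEF is highest in liver (4.76).

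Averaged over the loop, the mean log2 level (1 CPM added) of the 4 activators minus that of the 4 repressors was -1.55 in brain, -1.78 in spleen, -2.04 in ovary, -2.84 in blood, -3.06 in liver and -3.07 in muscle. The MiSeq and NextSeq libraries gave -1.55 and -1.55 in brain, -1.98 and -1.77 in spleen, -1.96 and -2.05 in ovary, -2.52 and -2.86 in blood, -2.91 and -3.07 in liver and -3.19 and -3.06 in muscle. The lowest library of brain, ovary and spleen, at -2.05, was thus above the highest library of liver, muscle and blood, at -2.52. NPAS2, among the 4 activators, contributes to this split. It was below the added 1 CPM in liver (0.353 CPM), muscle (0.128) and blood (0.0470), against 30.6 CPM in brain. Brain stands above spleen in this order only through NPAS2, at 30.6 against 5.91 CPM. CLOCK, ARNTL and ARNTL2 were each lower in brain than in spleen in summed CPM. The repressor mean was higher in brain, at 7.325 against 7.192. The difference without NPAS2 was not computed. ARNTL enters the mean as well, so the split is not separate evidence from the ratios above. The libraries of liver and muscle overlapped, as did those of ovary and spleen, while both libraries of blood lay above those of liver and muscle. Because lengths differ between genes, the sign of the difference carries no meaning and only its change between tissues does.

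The tissue orders of many levels rested on the scale. With TMM factors, the highest tissue was blood for 11 members, brain for 4, ovary for 3, spleen for 3, muscle for 2 and liver for 1. The members whose highest tissue was the same in CPM and under all 4 other scalings were CLOCK, NFIL3 and both TEF segments in blood, both NPAS2 segments, BHLHE40 and TIMELESS in brain, the cryptochrome DASH-like segment, CSNK1G1 and TIPIN in ovary, and the cryptochrome-1-like segment and CSNK1E in spleen. For both TEF segments blood and brain were not separated in CPM. In the MiSeq library brain was the higher for each, at 78.6 against 76.9 CPM and, for the second segment, 4.95 against 4.44 CPM. Of the core loop, ARNTL, PER2, PER3, CRY1 and CRY2 changed their highest tissue with the scaling, to blood or, for CRY1, to muscle. ARNTL2 was highest in spleen except with DESeq2 size factors, which placed brain first.

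**Figure D4:**
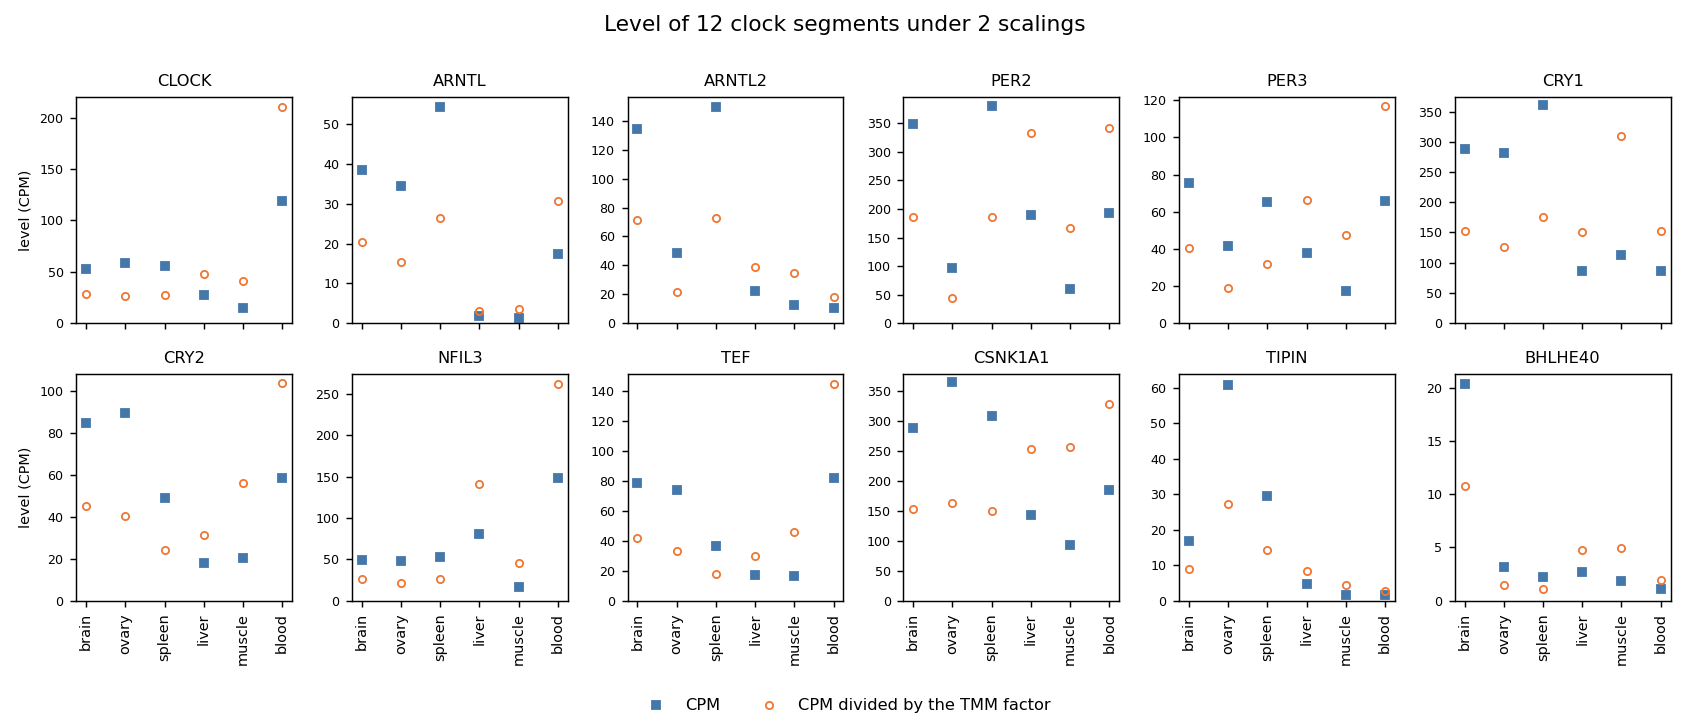
Level of 12 clock segments in 6 tissues (linear axes from 0, in CPM) as CPM (filled squares) and as CPM divided by the TMM factor of the tissue (open circles). CLOCK, NFIL3 and TEF are highest in blood and TIPIN in ovary and BHLHE40 in brain on both scales, whereas PER2 turns from spleen to blood (341 CPM after division) and CRY1 from spleen to muscle (309.8 CPM).

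Genes around the core loop were taken from lists of its known regulators. Of the nuclear receptor loop and output list, 4 of 8 genes were matched by name (NR1D2, RORA, RORB and HLF), and all 4 were highest in brain in CPM, as 24.9% of all expressed segments were. NR1D2 had 201 CPM in brain, with ovary at 93.7, blood at 63.2, spleen at 44.4, liver at 32.3 and muscle at 29.6. RORA, which activates ARNTL, had 15.6 CPM in brain, with ovary at 11.5, spleen at 5.79, muscle at 4.19, liver at 3.24 and blood at 0.439. RORB, a receptor of brain and retina, had 10.0 CPM in brain, with ovary at 2.10, spleen at 1.30, liver at 0.594, muscle at 0.315 and blood at 0. All 3 were lower outside the brain, but with TMM and DESeq2 size factors RORB alone of the 4 stayed highest in brain, while NR1D2 was highest in blood and RORA in muscle. HLF, a D-box activator and relative of TEF, had 22.6 CPM in brain, with liver at 13.8, ovary at 10.8, spleen at 6.49, muscle at 1.52 and blood at 0.0470, and liver led under those 2 scalings. Blood was the lowest tissue for RORA, RORB and HLF.

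In the list of protein turnover and kinases 13 of 14 genes were matched, and 11 of them reached 1 CPM in all 6 tissues, against 46.5% of all segments. Their highest tissue in CPM was brain for 4 (all expressed segments 24.9%), ovary for 3 (32.1%), spleen for 3 (23.7%), blood for 2 (8.89%) and muscle for 1 (4.11%). FBXL21, a ubiquitin ligase subunit that acts on cryptochromes, had 101 CPM in ovary, with brain at 87.1, spleen at 79.7, muscle at 10.9, liver at 9.80 and blood at 5.82, and with TMM factors brain was highest. Blood was its lowest tissue. SIRT1, a deacetylase that acts on ARNTL and PER2, had 254 CPM in blood, with spleen at 93.9, ovary at 84.3, brain at 55.6, liver at 15.4 and muscle at 11.6. Blood was the highest tissue of SIRT1 with TMM factors too.

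NAMPT, which makes the cofactor of SIRT1 and is itself a clock output in mammals, ran the other way in blood. It had 364 CPM in spleen, with ovary at 267, liver at 227, muscle at 110.0, brain at 103 and blood at 10.1, with liver highest with TMM factors. NONO, a partner of the period proteins, had 266 CPM in spleen, with ovary at 187, brain at 123, liver at 36.1, muscle at 22.8 and blood at 6.40, and was likewise lowest in blood. PRKAA2, a catalytic subunit of the energy sensor AMPK that phosphorylates cryptochromes, had 21.8 CPM in muscle, with ovary at 18.5, brain at 6.78, liver at 0.0565, spleen at 0 and blood at 0, and muscle was highest on either scale. Its paralog PRKAA1 had 128 CPM in ovary, with spleen at 109.8, brain at 104, blood at 54.9, liver at 27.8 and muscle at 23.7, and turned to blood with TMM factors. The subunits of the ligase that removes period proteins were both highest in brain in CPM, BTRC at 148 and FBXW11 at 98.5 CPM, with their lowest levels at 15.3 CPM in liver and 6.83 CPM in muscle, and BTRC turned to blood with TMM factors. CSNK2A1, a catalytic subunit of casein kinase II, ranged from 44.9 CPM in liver to 209 CPM in ovary. GSK3B, a kinase of several clock proteins, ranged from 20.3 CPM in muscle to 97.2 CPM in brain. With TMM factors CSNK2A1 was highest in blood and GSK3B in liver.

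Genes of light input and melatonin were matched for 6 of 11, and none reached 1 CPM in all tissues, against 46.5% of all segments. Melanopsin (OPN4), a light-sensing pigment, had 44.7 CPM in ovary, with brain at 1.78, liver at 0.0141, spleen at 0, muscle at 0 and blood at 0. TPH1, which starts the synthesis of serotonin, was highest in ovary with 125 CPM, next to 10.1 in brain. The last steps from serotonin to melatonin are made by AANAT and ASMT. AANAT had 49.0 CPM in blood, with ovary at 6.11, brain at 0.762, spleen at 0.576, liver at 0.226 and muscle at 0.117, and ASMT 11.6 CPM in ovary, with blood at 8.86, spleen at 1.64, liver at 0.905, brain at 0.711 and muscle at 0.257. In ovary and blood both enzymes were thus present, whereas in brain neither reached 1 CPM. Blood was the highest tissue of AANAT on either scale, and ASMT was highest in ovary in CPM and in blood with TMM factors.

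In the hypothalamic and seasonal list 9 of 12 genes were matched and 5 were highest in brain, against 24.9% of all expressed segments. Of these ADCYAP1, the light-signalling peptide PACAP, had 37.9 CPM in brain and at most 0.134 elsewhere, and VIP, a coupling peptide of the mammalian clock centre, 10.1 CPM in brain and at most 0.420 elsewhere. Its receptor VIPR2 had 28.9 CPM in brain, with ovary at 19.3, spleen at 19.0, liver at 8.23, muscle at 2.22 and blood at 0. RASD1, a small G protein that tunes the light response of the mammalian clock centre, had 41.9 CPM in brain, with liver at 22.8, ovary at 8.65, spleen at 2.73, muscle at 0.362 and blood at 0.0627, with liver highest with TMM factors. DIO2, the enzyme that activates thyroid hormone, had 24.7 CPM in liver, with brain at 6.68, ovary at 2.33, spleen at 1.97, muscle at 0.222 and blood at 0. CREB1, which carries light signals to period genes, was highest in spleen (24.1 CPM), on either scale, and lowest in blood (0.815 CPM).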

How the data were processed

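Total RNA of brain, ovary, spleen, liver, pectoral muscle and trunk blood from 2 adult females was pooled by tissue and made into stranded mRNA libraries, 1 run on NextSeq and 1 on MiSeq for each pool. According to the methods, reads were trimmed with Trimmomatic 0.36 and aligned to protein-coding segments that the authors had assembled de novo. The submitters' processing notes name STAR 2.5.2a, whereas the methods name another aligner, and the counter is not given in the sources used here. The table as deposited by the authors holds expected counts per segment in steps of 0.5, not normalized, beside the name and species of the best protein hit. Digit separators in some columns were removed. A name comes from the closest known protein, so closely related paralogs may share reads.

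The 2 libraries of a tissue were added up and scaled to CPM of their total, whereas the methods use TPM, which needs lengths not used here. Depth is given in the report. For τ, levels below 2 CPM were raised to 2, the natural log of each level was divided by that of the highest and subtracted from 1, and the sum over tissues was divided by 5. Intervals are exact 95% Poisson intervals, for a ratio of counts exact 95% Clopper-Pearson intervals, and cover counting error only, since reads made by PCR are not independent molecules. The main segment of a gene is that with the most counts, and every member gene was named. Of the gene lists, the nuclear receptor loop was named in full and the rest from 10 CPM and a 4-fold ratio of the highest to the lowest tissue with 1 CPM added, except 1 gene that is not reported here. The members and lists were chosen with earlier results of these data known. With 1 pool per tissue no test was run. Alternatives were each platform alone, TMM factors (edgeR 4.0.16), DESeq2 1.42.0 size factors, totals without the 50 most abundant segments or without mitochondrially encoded genes and hemoglobins (28 segments), counts thinned to the smallest total, segments of a name summed, and other thresholds, pseudocounts and floors. For TMM and DESeq2 counts were rounded to whole numbers. The R version was 4.3.3 and that of Python 3.11.15, with matplotlib 3.10.9, pandas 2.3.3, numpy 2.4.6 and scipy 1.17.1, and the calls and τ were tested on simulated counts.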

Additional observations from a re-analysis of the deposited data

How the results depend on the processing

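The tissue orders of levels depended on the scaling, and the ratios within a tissue did not. With TMM factors 11 members were highest in blood, 4 in brain, 3 in ovary, 3 in spleen, 2 in muscle and 1 in liver. A 2-fold lead was then held by 3 in brain, 3 in blood, 2 in ovary and 1 in liver, 9 in any tissue. DESeq2 size factors gave 11 highest in blood, 5 in brain, 3 in ovary, 2 in spleen, 2 in muscle and 1 in liver. The 2-fold leads were then 7 in blood, 4 in brain, 1 in ovary and 1 in liver, 13 in any tissue. Without the 50 most abundant segments 8 were highest in blood, 7 in spleen, 5 in brain, 3 in ovary and 1 in liver. Of these 4 had a 2-fold lead in brain, 3 in blood and 2 in ovary. Without mitochondrially encoded genes and hemoglobins 7 were highest in blood, 7 in spleen, 6 in brain and 4 in ovary. A 2-fold lead was held there by 4 in brain, 3 in blood and 2 in ovary. The cause was not tested beyond the scaling itself. By percentile within the tissue, an alternative added after the data were seen like the ratios of genes, 8 were highest in blood, 1 in liver and 1 in muscle. The rest were highest in brain, ovary or spleen.

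The difference of activators and repressors, which keeps some scale through the added 1 CPM, was with TMM factors -1.53 in brain, -1.93 in ovary, -3.26 in liver and -3.49 in muscle, and with DESeq2 size factors -1.53, -1.91, -3.27 and -3.49 there and -3.105 in blood. Without the 50 most abundant segments it was -1.55 in brain, -3.14 in blood, -3.28 in liver and -3.57 in muscle, without mitochondrially encoded genes and hemoglobins -1.55 in brain and -3.45 in muscle, and thinned -1.55 in brain. With 0.5 CPM added it was -1.555 in brain, -3.09 in blood, -3.30 in liver and -3.37 in muscle, and with segments of a name summed -1.37 in brain, -1.48 in spleen, -1.93 in ovary and -2.85 in liver. In each of these, which all include NPAS2, brain, ovary and spleen lay above liver, muscle and blood.

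Either library alone gave 2 to 4 members highest in blood, 0 to 1 with a 2-fold lead in blood and 5 to 7 with a 2-fold lead in any tissue. The differences of activators and repressors were -1.55 to -1.55 in brain, -1.98 to -1.77 in spleen, -2.05 to -1.96 in ovary, -2.86 to -2.52 in blood, -3.07 to -2.91 in liver and -3.19 to -3.06 in muscle. CLOCK is the member at the 2-fold limit in blood, and 1 member had that lead there when thinned or with 0.5 CPM added. At 1.5-fold 1 member led in spleen, 3 in blood and 11 in any tissue. At 5 CPM 12 were present in blood. On linear CPM the median τ was 0.661. No called lead of a member changed direction under any alternative run. Of 128 ratios of single libraries, 85 lay within the counting interval of the summed counts. The 43 outside it were all MiSeq ratios, and they made up most of the MiSeq ratios. NextSeq gave most of the counts of each sum, so its ratios lie close to the summed ratio by construction. The 85 are therefore no measure of how far the platforms match. No paired analysis was possible because no test was run and the libraries of a tissue carry a platform and no replicate number. A MiSeq count equals 0.499 to 0.989 CPM, so MiSeq values near 1 CPM rest on 1 or 2 counts.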

Other observations

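NOCT (nocturnin), an output gene of the clock that is known in mammals for its rhythm in liver, was looked up after the other values had been seen. It had 135 CPM in liver and 56.3 CPM in muscle, next to 19.4 CPM in ovary, 16.995 in brain, 11.7 in spleen and 1.60 in blood. Liver was its highest tissue with TMM factors too. Liver and muscle were also the 2 tissues with the least ARNTL. Blood, the lowest for NOCT, had more ARNTL than they did (17.4 CPM), and a link between the genes was not tested. PASD1, a relative of CLOCK that represses the loop in human cells, had 4.06 CPM in brain and 1.76 CPM in spleen and stayed below 1 CPM in the other tissues. Its segment shares its number in the deposited identifiers with the second NPAS2 segment, which had 20.1 CPM in brain and 8.97 CPM in spleen, and whether they are separate genes was not tested.

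Of 6 markers of retina and pineal gland 4 were matched, and they summed to 146 CPM in ovary, 83.0 in blood and 22.2 in brain, with TPH1 the main part in ovary and AANAT in blood. The brain sum was below both. TPH1, AANAT and ASMT are also named with the melatonin genes above, so the sums are not separate evidence. In spleen the markers of smooth muscle and vessels summed to 1930 CPM, against 309.9 in ovary and 226.4 in muscle. Spleen held the highest CPM of 8 clock segments, and whether vessels carry any of them was not tested.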
